A study of Mus musculus with 14 samples.

Results

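The genes described here are 34 listed subunits of the vacuolar proton pump, its partners in acid secretion and proteins of the lysosome. Each was read by its brightest probe set, the one with the highest mean over the 14 arrays, and 33 of the 34 were measured among 11815 genes tested. Atp6v0c, a ring subunit of the pump, had no probe set named for it in the annotation used and is not analysed here. All 33 measured genes passed the filter on low signal. The list was divided by role into 2 osteoclast-type pump subunits, 7 general subunits of the membrane sector, 8 general subunits of the catalytic sector, 2 accessory proteins, 6 acid secretion partners, 4 proteins of the lysosomal membrane and its traffic, and 5 proteins of the lysosomal lumen.

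The arrays carried RNA of 1 tumour labelled rhabdomyosarcoma, 12 osteosarcomas and the mc3T3 line. All 13 tumours arose in mice heterozygous for p53 (p53+/-), and the labels give neither their ages nor whether each came from a separate animal. The mc3T3 cells are a non-tumorigenic mouse osteoblast line, untreated and kept in alpha-MEM with 10% serum. It served as the control, as a single culture and hence a single array. The arrays measured bulk RNA, in which fewer cells of a type and less RNA per cell cannot be told apart.

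The vacuolar ATPase is a rotary pump in which a catalytic sector in the cytosol splits ATP and a sector in the membrane carries protons. Nearly every cell uses it to acidify lysosomes and endosomes, whose enzymes work at low pH. Osteoclasts, the bone-resorbing cells of the myeloid lineage, also place it in the membrane facing bone, where Tcirg1 (the a3 subunit) and Atp6v0d2 (the d2 subunit) are the characteristic forms. There, carbonic anhydrase Car2 supplies the protons, Slc4a2 exports bicarbonate and Clcn7 with Ostm1 carries chloride, and loss of Tcirg1, Clcn7, Ostm1 or Snx10 is a known cause of osteopetrosis.

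The marker lists gave the setting of the samples. Osteoclast markers summed to 4063 signal units in the tumour labelled rhabdomyosarcoma, 86407 to 175334 in the osteosarcomas and 7329 in mc3T3. Macrophage markers summed to 132389 in the tumour labelled rhabdomyosarcoma, 42822 to 106994 in the osteosarcomas and 472 in mc3T3. The tumour labelled rhabdomyosarcoma had 39.4 units of Myod1 and 65.9 of Myog, the myogenic regulators, and 7 of its 9 muscle markers lay under 200, so the muscle markers go against its label. Osteosarcomas 6 and 9 stood apart with muscle marker sums of 218680 and 141330, against a median of 9044 over the 12 osteosarcomas. For the listed genes, results that change without these 2 tumours are given with both values. For genes outside the list no values without them were taken.

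Promoter sequence was available for 26 of the 34 genes, as the RefSeq window from 250 bases before to 50 bases after the start on GRCm38.p6. There was no entry for Atp6v0a2, Atp6v0d2, Atp6v1b2, Atp6v1c1, Atp6v1g1, Atp6v1h, Car2 and Npc1. TFEB and its relatives TFE3 and MITF are known to act on many lysosomal genes through an E-box, CACGTG, within a longer palindrome, TCACGTGA. The longer motif reads the same on the opposite strand and contains the shorter one. CACGTG stood in the window of 7 of the 26 genes (26.9%), against 2187 of 27025 genes with an entry (8.09%). TCACGTGA stood in 5 of the 26 (19.2%), against 304 of the 27025 (1.12%). The stretches holding the matches are shown so that these genes can be followed through the results. The capitals mark the longer motif where it is present and otherwise CACGTG, written 5′ to 3′ on the strand of the gene.
Atp6v1a (chr16:44139344-44139431, minus strand): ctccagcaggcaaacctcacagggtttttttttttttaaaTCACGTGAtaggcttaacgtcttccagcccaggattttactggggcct
Atp6v0b (chr4:117887310-117887405, minus strand): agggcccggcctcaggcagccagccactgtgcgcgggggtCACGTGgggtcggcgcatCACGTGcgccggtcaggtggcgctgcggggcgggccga
Atp6v0e (chr17:26676358-26676415, plus strand): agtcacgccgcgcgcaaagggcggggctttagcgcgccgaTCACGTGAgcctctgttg
Clcn7 (chr17:25133357-25133410, plus strand): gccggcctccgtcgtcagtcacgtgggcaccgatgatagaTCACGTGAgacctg
Atp6v0d1 (chr8:105566045-105566108, minus strand): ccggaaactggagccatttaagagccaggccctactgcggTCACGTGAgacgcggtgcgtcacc
Gla (chrX:134601153-134601255, minus strand): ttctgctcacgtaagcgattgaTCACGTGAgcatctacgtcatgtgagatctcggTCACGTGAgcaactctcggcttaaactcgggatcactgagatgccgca
Lamp1 (chr8:13159060-13159180, plus strand): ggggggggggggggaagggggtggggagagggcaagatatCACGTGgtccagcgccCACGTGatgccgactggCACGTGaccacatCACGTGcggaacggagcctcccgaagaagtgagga
A match is a description of the letters in the window and was not tested as a binding site. The stretches belong to pump subunits (Atp6v1a, Atp6v0b, Atp6v0e, Atp6v0d1), the chloride exchanger Clcn7 and the lysosomal proteins Gla and Lamp1.

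The first comparison set the osteosarcomas against mc3T3, the control named by the study's design. Of the 33 genes, 11 were higher in the osteosarcomas and 0 were lower, where a call is an adjusted p under 0.05 in the limma fit over all genes with a difference of at least 1 on the log2(signal + 30) scale. Over all genes tested, 8.59% were called higher and 4.58% lower. Their median difference was 1.15 on the log2 scale, against -0.02 over all genes. All 12 osteosarcomas lay above mc3T3 for 23 of the 33 genes (21.5% of all genes did so), and all 12 lay below it for 1, the lysosomal membrane glycoprotein Lamp2 (21% of all genes did so).

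**Figure D1:**
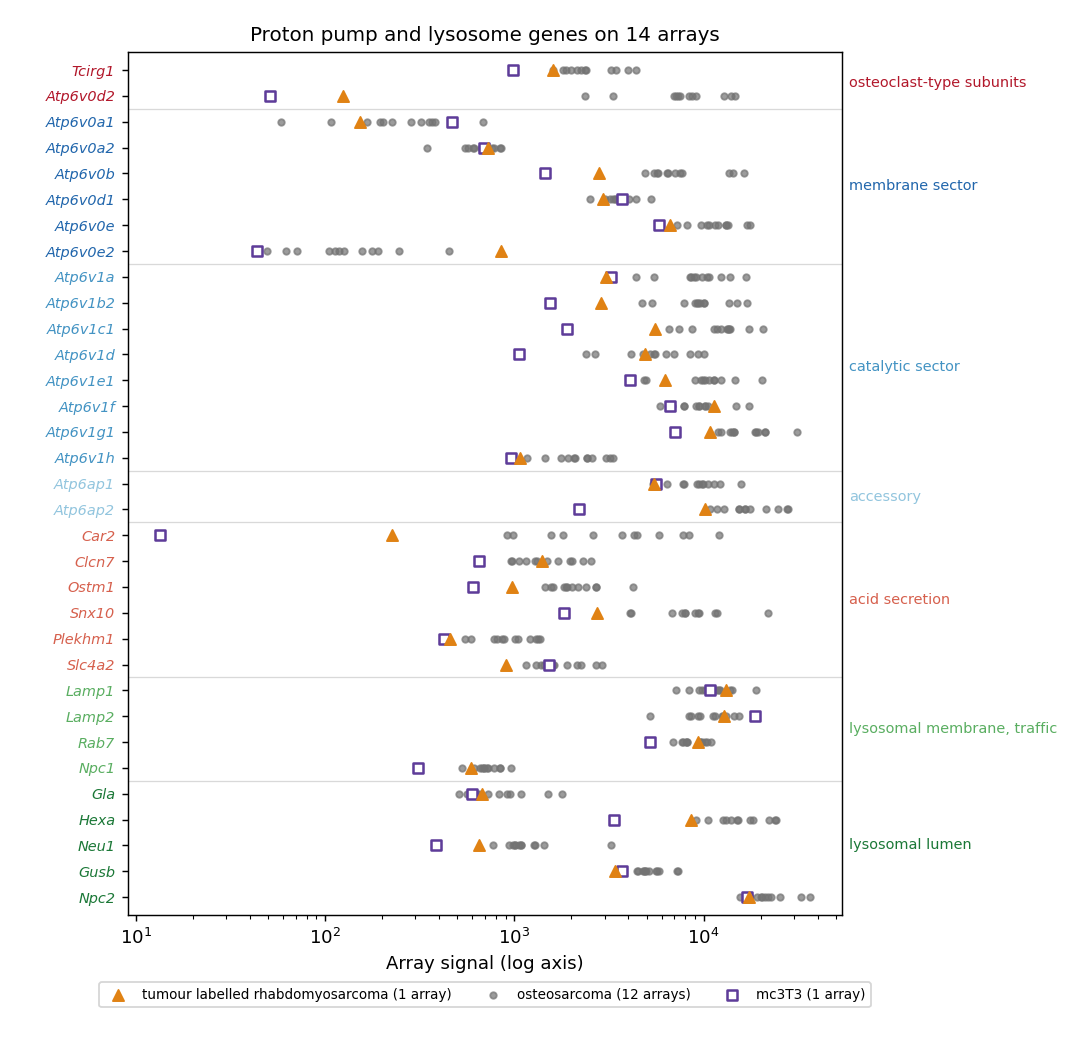
Signal of each gene on all 14 arrays (log axis), grouped by role, with the tumour labelled rhabdomyosarcoma, the 12 osteosarcomas and mc3T3 as separate marks. Atp6v0d2 and Car2 show the widest gap, with every osteosarcoma at or above 911 units and mc3T3 at 51.0 and 13.5.

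Of the 2 osteoclast-type subunits, 1 was called. Atp6v0d2, read by 1434798_at, had a signal of 2352 at the lowest, 7917 at the median and 14631 at the highest osteosarcoma, against 51.0 in mc3T3. The osteosarcomas do not overlap the line, giving 6.56 ± 0.73 for the log2 difference (± SE throughout; adjusted p = 3.6e-05). A second probe set for the gene, 1444176_at, gave a difference of 7.56 and was also called. The mc3T3 signal lies in a range that cannot be told from background, so the size of both differences depends on the pseudocount and is not an exact fold; with a pseudocount of 100 the first was 5.68. Tcirg1, the a3 subunit that forms part of the proton path, had a signal of 1604, 2313 and 4378 at the lowest, median and highest osteosarcoma, against 982 in mc3T3. Every osteosarcoma was above the line, but its difference of 1.32 ± 0.47 did not pass (adjusted p = 0.082).

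Among the general membrane-sector subunits 1 of 6 measured was higher. Atp6v0b, a ring subunit that binds protons, had 4918, 6774 and 16402 units at the lowest, median and highest osteosarcoma, against 1451 in mc3T3. The groups did not overlap, at a difference of 2.39 ± 0.57 (adjusted p = 0.0121). Atp6v0d1, the widely expressed counterpart of Atp6v0d2, had 2502, 3514 and 5260 units at the lowest, median and highest osteosarcoma, against 3702 in mc3T3. The line lay within the range of the tumours, and the difference was -0.05 ± 0.32 (adjusted p = 0.935). Atp6v0a1 and Atp6v0a2, the general forms of the a subunit, had differences of -0.89 and -0.09, and Atp6v0e 1.00, with none called. Atp6v0b, Atp6v0d1 and Atp6v0e all have a match in the stretches above, so the letters did not separate the gene that was called from the other two.

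In the catalytic sector, all 8 subunits had positive differences and 3 were called: Atp6v1c1, Atp6v1b2 and Atp6v1d. Atp6v1c1, a subunit that links the catalytic sector to the membrane sector, had 6566, 12891 and 20517 units at the lowest, median and highest osteosarcoma, against 1889 in mc3T3, a difference of 2.64 ± 0.48 (adjusted p = 0.00183). Atp6v1b2, the brain-type B subunit of the ATP-splitting ring and the form that also serves osteoclasts, had 4737, 9411 and 16978 units, against 1540 in mc3T3, a difference of 2.60 ± 0.53 (adjusted p = 0.00438). Neither gene's osteosarcomas overlapped the line. Atp6v1d, the central shaft of the rotor, had 2406, 5506 and 10007 units, against 1064 in mc3T3, a difference of 2.33 ± 0.62 (adjusted p = 0.0216). Its other 2 probe sets gave 1.36 each and were not called, while the mean of its probe sets gave 1.685 and was called. The remaining catalytic subunits had differences of 0.53 (Atp6v1f) to 1.52 (Atp6v1a, adjusted p = 0.0698), none called. Another probe set of Atp6v1a, 1450634_at, gave 1.66 and was called, so its probe sets disagree. Atp6v1a was also called with the mean of its probe sets (1.59) and without osteosarcoma 1 or 2. With only the osteosarcomas whose identifiers start with m, Atp6v1a (1.75), Atp6v1e1 (1.56) and Atp6v1h (1.37) were called. Atp6v1g1 (1.27) was called with quantile normalization, with the mean of its probe sets and without osteosarcoma 2 or 12.

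The accessory protein Atp6ap2, known as the prorenin receptor and needed to assemble the pump, was the second most changed pump gene. It had 10862, 16589 and 27787 units at the lowest, median and highest osteosarcoma, against 2209 in mc3T3, with no overlap and a difference of 2.96 ± 0.46 (adjusted p = 0.000581). Its partner Atp6ap1 had a difference of 0.73 and was not called.

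Of the 6 acid secretion partners, 3 were called higher. Car2 had 911, 4000 and 12043 units at the lowest, median and highest osteosarcoma, against 13.5 in mc3T3. The groups were apart by a difference of 6.29 ± 1.11 (adjusted p = 0.00156), or 4.95 with a pseudocount of 100, since the mc3T3 signal is again in the range of background. Car2 is also made in erythroid cells, and its highest value was in osteosarcoma 6. That tumour had the highest erythroid marker sum as well, 9094 units against 210.5 to 3605 in the other osteosarcomas and 97.5 in mc3T3. The next tumours did not keep this order. Osteosarcoma 5, next in erythroid sum at 3605, had 1559 units of Car2. Osteosarcomas 10 and 4, next in Car2 at 8326 and 7801 units, had erythroid sums of 283.3 and 390. All 4 measured erythroid markers were under 200 in mc3T3 and none of the 4 was called, and their part in the Car2 result was not tested. Ostm1, the partner that keeps Clcn7 stable, had 1461, 1951 and 4252 units, against 606 in mc3T3, a difference of 1.75 ± 0.44 (adjusted p = 0.0153). Snx10, a sorting protein needed for the resorbing membrane, had 4100, 8509 and 21779 units, against 1822 in mc3T3, a difference of 2.19 ± 0.62 (adjusted p = 0.0305). Without osteosarcomas 6 and 9 its difference was 2.19 as well, and was not called (adjusted p = 0.054). With the mean of its probe sets, the other of which is dim, the difference was 1.00 and not called either. Clcn7, the Rab7 effector Plekhm1 and Slc4a2 had differences of 1.15, 1.10 and 0.20 and were not called. Clcn7 was called with only the osteosarcomas whose identifiers start with m. Its other probe sets gave 0.55 and 0.0056 over all the osteosarcomas, neither called.

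Among the lysosomal proteins, 1 of 4 of the membrane and traffic group and 1 of 5 of the lumen group were called. Npc1, which passes cholesterol out of the lysosome, had 530, 705 and 961 units at the lowest, median and highest osteosarcoma, against 308 in mc3T3, a difference of 1.15 ± 0.29 (adjusted p = 0.0161) that was not called with the m tumours alone. Hexa, the alpha chain of beta-hexosaminidase, had 9067, 15085 and 24140 units, against 3383 in mc3T3, a difference of 2.20 ± 0.46 (adjusted p = 0.00508). Both genes' osteosarcomas lay above the line. Lamp2 had 5192, 11369 and 15298 units, against 18762 in mc3T3, a difference of -0.82 that was not called (adjusted p = 0.246), and its other 3 probe sets gave 0.25, 0.20 and -0.55, none called. The membrane glycoprotein Lamp1, the late endosomal GTPase Rab7, the hydrolases Gla, Neu1 and Gusb and the cholesterol carrier Npc2 had differences of 0.06 to 1.54, none called. A dimmer probe set of Npc2 gave 1.81 and was called, so its probe sets disagree. Beside these results, all 9 osteoclast, all 10 macrophage and all 5 endothelial markers were called higher in the osteosarcomas. So were 5 of the 6 measured osteoblast markers, whose median difference was 5.40. In mc3T3, 5 osteoclast, 10 macrophage, 5 endothelial and 4 osteoblast markers were under 200. Their part in the differences of the pump and lysosome genes was not tested by this comparison.

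**Figure D2:**
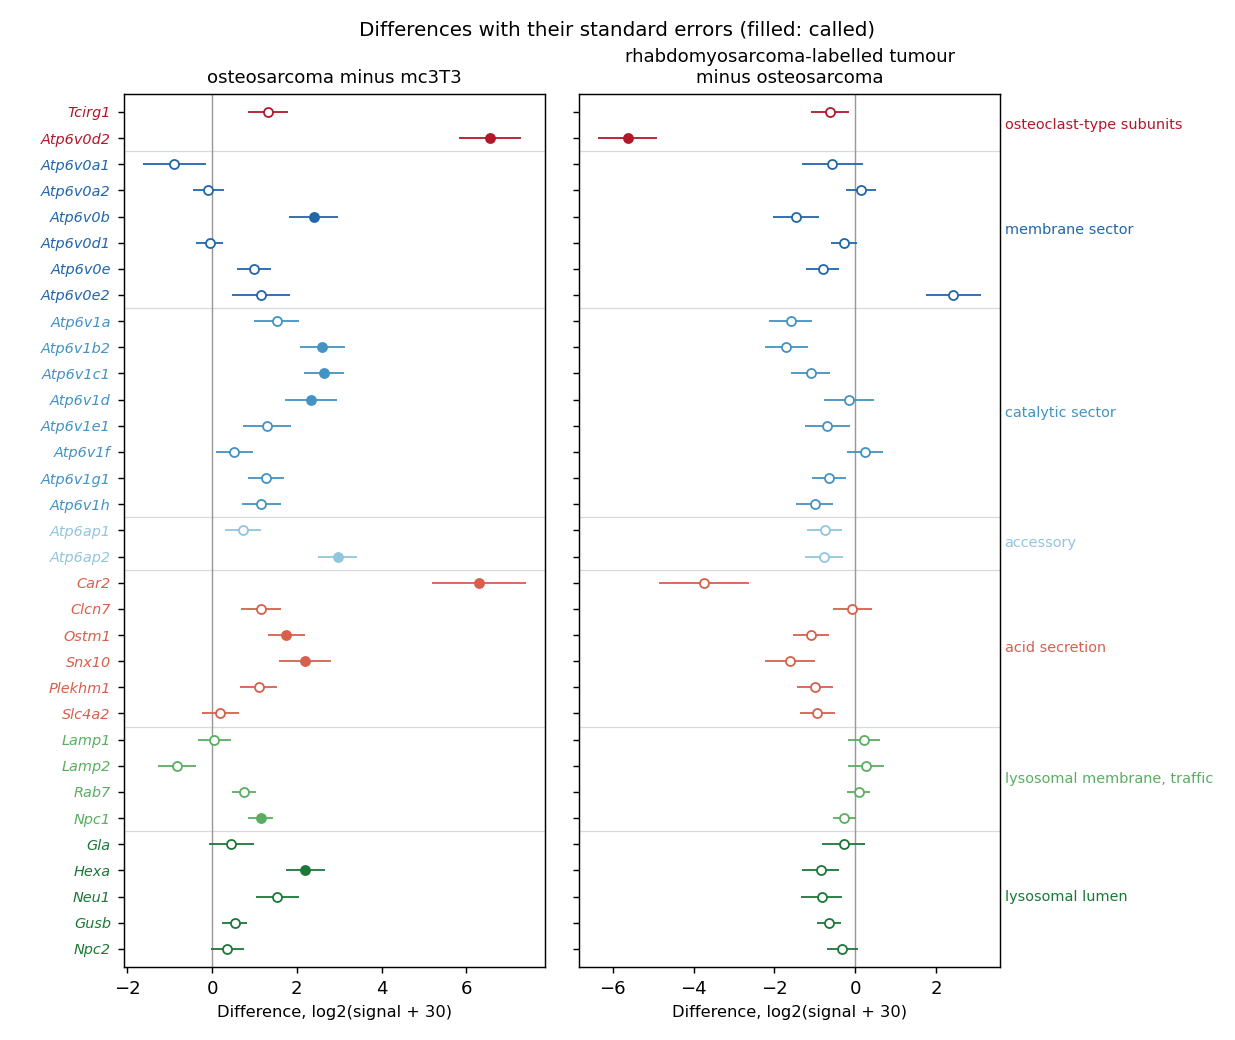
Differences on the log2(signal + 30) scale with their standard errors for each gene, the osteosarcomas minus mc3T3 on the left and the tumour labelled rhabdomyosarcoma minus the osteosarcomas on the right; filled marks are called. The osteosarcomas minus mc3T3 give 11 filled marks to the right of 0, and the tumour labelled rhabdomyosarcoma minus the osteosarcomas gives 1, Atp6v0d2, to the left.

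The second comparison set the tumour labelled rhabdomyosarcoma, a single array, against the 12 osteosarcomas. Of the 33 genes, 1 was lower and 0 were higher (1.76% and 1.19% of all genes), the median difference was -0.69 against 0.05 over all genes, and 13 of the 33 had an unadjusted p under 0.05, as did 1888 of 11815 genes. Atp6v0d2 had 124 units in the tumour labelled rhabdomyosarcoma, against 2352 to 14631 in the osteosarcomas, a difference of -5.63 ± 0.73 (adjusted p = 0.000549). Its second probe set, with 33.8 units in that tumour, was called too. Both signals are low, so the size of the differences depends on the pseudocount. With a pseudocount of 100 the first was -5.11. Atp6v0d1, the general counterpart of Atp6v0d2, had 2950 units in the tumour labelled rhabdomyosarcoma, within the osteosarcoma range of 2502 to 5260. Car2 had 226 units in that tumour, against 911 to 12043 in the osteosarcomas, outside their range, but its difference of -3.73 ± 1.11 did not pass (adjusted p = 0.0933). Tcirg1 had 1608 units, against 1604 to 4378 in the osteosarcomas, which is inside their range at its lower end.

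Signal in the tumour labelled rhabdomyosarcoma was below all 12 osteosarcomas for 17 of the 33 genes (14.1% of all genes), among them Atp6v1a, Atp6v1b2, Atp6v1c1, Atp6ap2, Snx10, Ostm1 and Hexa. It was above all 12 for 1 (16.6% of all genes), Atp6v0e2, a second form of the e subunit, with 852 units in that tumour against 49.1 to 451 in the osteosarcomas. The difference of 2.43 ± 0.69 did not pass (adjusted p = 0.0788) but was called with a pseudocount of 100 and without osteosarcoma 3. Its size depends on the pseudocount, since the osteosarcoma median of 123 units is under the filter signal of 200. With only the 6 osteosarcomas whose identifiers start with m, Atp6v1a, Atp6v1b2 and Car2 were also called lower. Osteoclast markers were called lower for 8 of 9 and osteoblast markers for 5 of 6, and 0 of 10 macrophage markers were called in either direction. The marker sums above give their levels, and their part in the differences was not tested.

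The third comparison asked how the genes vary among the 12 osteosarcomas. Over these tumours the SD of a gene on the log2 scale was 0.21 to 1.21 with a median of 0.45, against a median of 0.40 over 9791 genes with a mean signal of at least 200. Car2 had the widest spread, 1.21. For each gene a slope was fitted on the level of osteoclast markers, taken as the mean log2 level of Acp5, Ctsk, Calcr, Oscar, Dcstamp and Ocstamp, none of which is among the 34 genes. A slope of 1 means that the gene changed by as many log2 units as the markers did. Within the mean, Oscar, Dcstamp and Ocstamp had slopes of 1.45, 1.46 and 1.59, and Acp5, Ctsk and Calcr 0.49, 0.35 and 0.66. The level thus follows Oscar, Dcstamp and Ocstamp most. Mmp9, Itgb3 and Nfatc1, listed as osteoclast markers but outside the mean, had slopes of 0.565 ± 0.112, 0.81 ± 0.18 and 0.15 ± 0.14. None of these was called (limma, adjusted p = 0.0567, 0.0771 and 0.724). The marker level was 10.91, 11.12 and 11.47 in osteosarcomas 1, 2 and 3, the lowest of the 12, and up to 12.90 in the others.

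Of the 33 genes, 8 had a slope called higher (0.246% of all genes) and 0 called lower (0.0508%), at an adjusted p under 0.05. The 8 make up 8 of the 29 genes called higher in the whole table. The median slope of the 33 was 0.47, against -0.03 over all genes, and 21 of the 33 had an unadjusted p under 0.05, as did 1520 of 11800 genes. Atp6v0d2 had a slope of 1.09 ± 0.16 (SE; adjusted p = 0.013). Atp6v1b2 had 0.77 ± 0.13 (adjusted p = 0.0292), Atp6v1d 0.89 ± 0.15 (0.0358), Atp6v1a 0.74 ± 0.13 (0.0367) and Atp6v1e1 0.80 ± 0.14 (0.0367), so 4 of the 8 catalytic subunits were called. Car2 had the steepest slope, 1.59 ± 0.28 (0.0367), Snx10 had 0.89 ± 0.15 (0.0358) and Hexa 0.64 ± 0.12 (0.0367). Tcirg1 had 0.37 ± 0.19 and was not called (0.446).

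**Figure D3:**
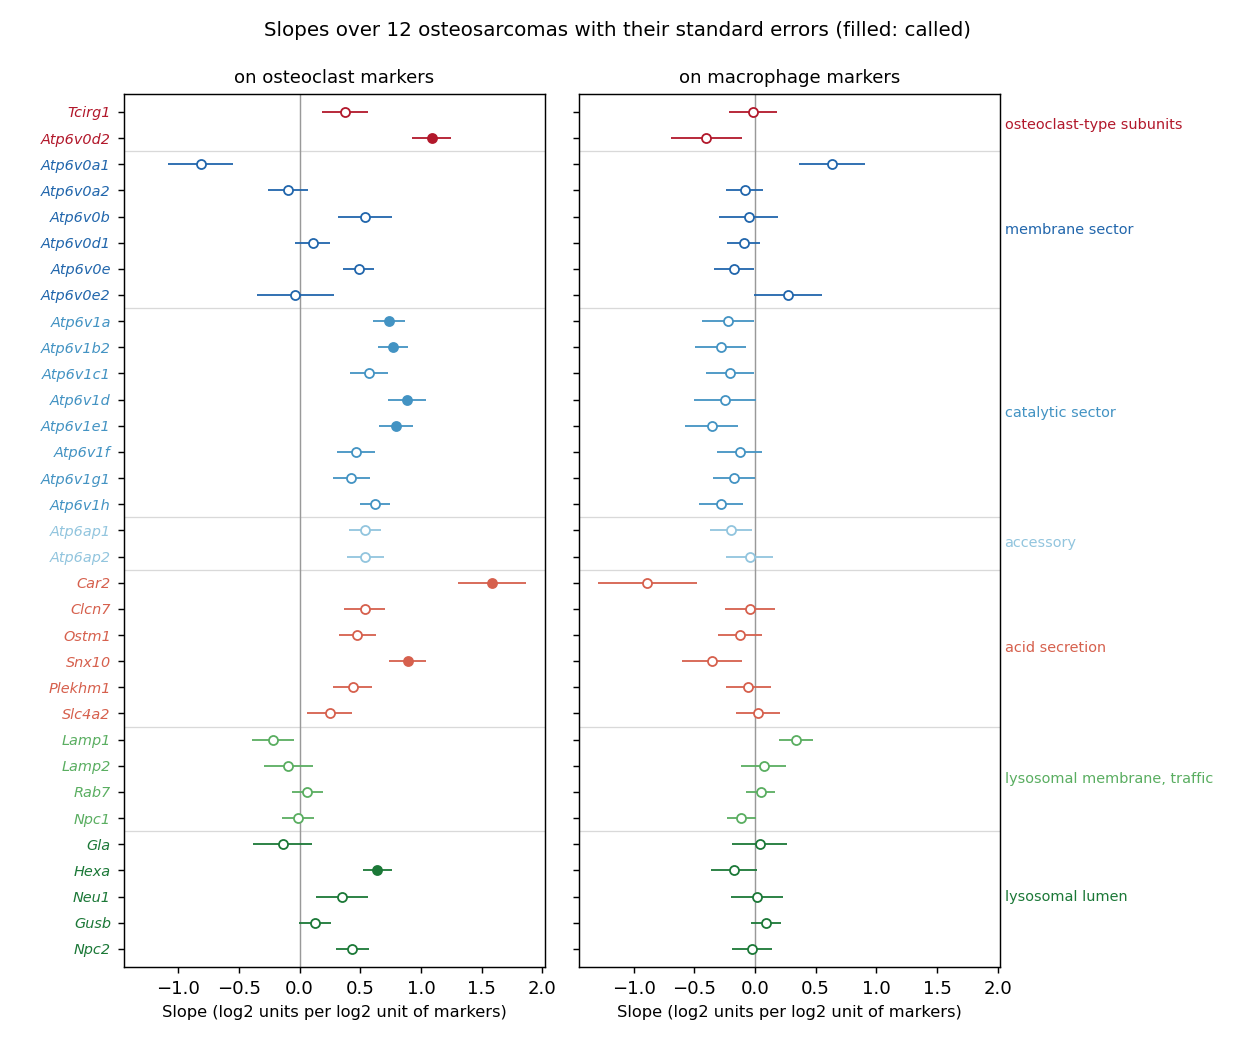
Slope of each gene on osteoclast markers and on macrophage markers over the 12 osteosarcomas, in log2 units per log2 unit with its standard error; filled marks are called. The 8 filled marks are all on the osteoclast markers, and 0 of 33 slopes on macrophage markers are filled.

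The general subunit Atp6v0d1 had a slope of 0.11 ± 0.14 (adjusted p = 0.814), beside 1.09 for its osteoclast-type counterpart. The genes of the lysosomal membrane and traffic had slopes of -0.22 to 0.06, among them Lamp1, which marks lysosomes in most cells, with -0.22 ± 0.17 (0.642). Atp6v0a1, an a subunit best known from neurons, had the most negative slope, -0.82 ± 0.27, and was not called (0.227). Its osteosarcoma signal had a median of 257 units and went down to 58.6, near background, which limits its slopes. The 7 genes with a match in the stretches above had slopes of 0.74 (Atp6v1a, called), 0.54 (Atp6v0b), 0.53 (Clcn7), 0.49 (Atp6v0e), 0.11 (Atp6v0d1), -0.14 (Gla) and -0.22 (Lamp1).

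**Figure D4:**
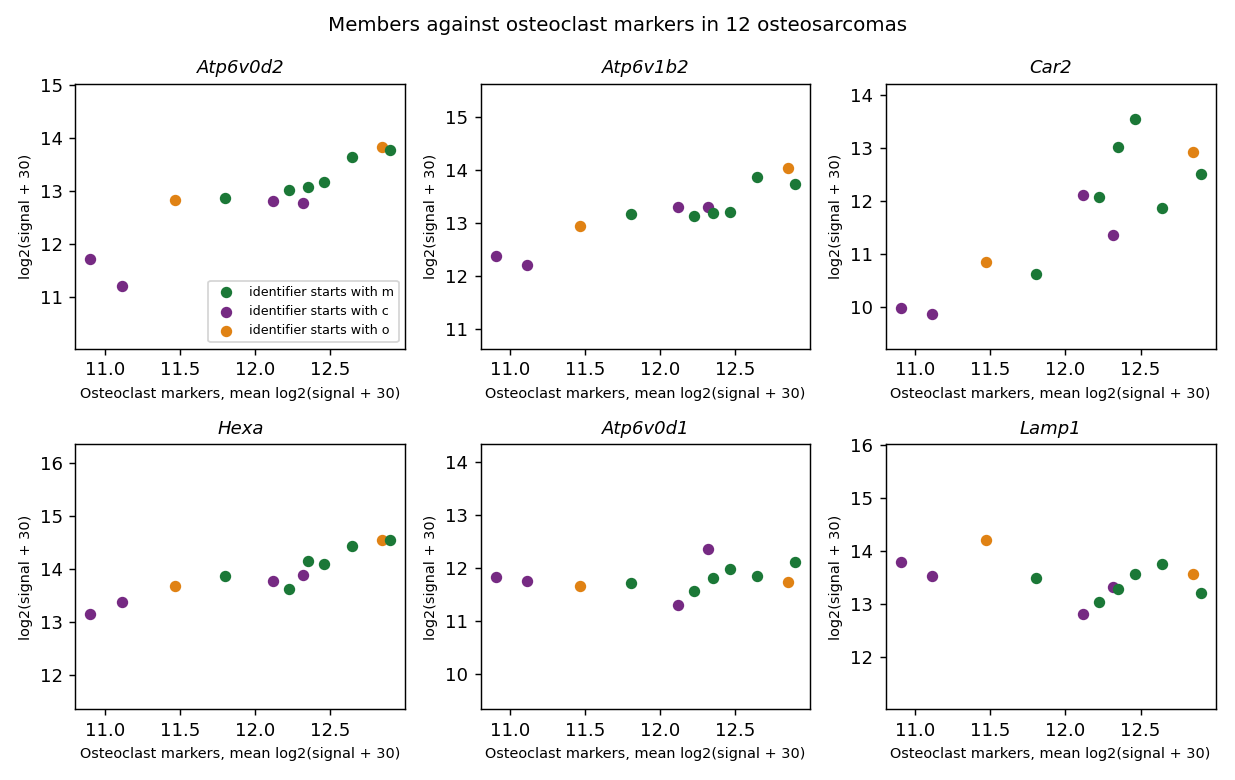
log2(signal + 30) of 6 genes against the osteoclast marker level in the 12 osteosarcomas, with points coloured by the first letter of the tumour identifier. Atp6v0d2, Atp6v1b2, Car2 and Hexa go up with the markers, while Atp6v0d1 and Lamp1 have slopes of 0.11 and -0.22.

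Since macrophages hold many lysosomes, the same slopes were taken on macrophage markers (C1qa, C1qb, C1qc, Csf1r, Adgre1, Mrc1, Cd163, Fcgr1 and Aif1). Cd68, a listed macrophage marker not among these, had a slope of 0.01 ± 0.20 on them and 0.50 ± 0.17 on osteoclast markers, neither called. Of the 33 genes, 0 were called in either direction (0.72% of all genes higher, 0.0169% lower), 3 had an unadjusted p under 0.05 (976 of 11800 genes did so) and the median slope was -0.09. The 3 were Atp6v0a1 at 0.64 ± 0.27, Lamp1 at 0.34 ± 0.14 and Car2 at -0.89 ± 0.41, with unadjusted limma p of 0.0332, 0.0303 and 0.0472. Atp6v0d2 had -0.40 ± 0.29. The markers are not independent across the tumours: osteosarcomas 1, 2 and 3 had macrophage levels of 12.31, 12.66 and 12.09, the highest 3, together with their low osteoclast levels. With both marker levels in the fit, 5 of the 33 kept a called osteoclast slope (0.195% of all genes), namely Atp6v0d2 at 1.18 ± 0.19 (adjusted p = 0.0424), Atp6v1d at 1.02 ± 0.17, Atp6v1a at 0.84 ± 0.15, Atp6v1b2 at 0.83 ± 0.15 and Hexa at 0.74 ± 0.13.

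These slope calls were lost in many fits with fewer tumours, although the slopes moved little with a single tumour left out. Over those 12 fits the slope was 0.908 to 1.192 for Atp6v0d2, 1.475 to 1.697 for Car2 and 0.614 to 0.664 for Hexa. The call was lost in 3, 8 and 9 of them. For the listed genes the count of called slopes was 0 without osteosarcoma 1, 2 or 4 and 0 without osteosarcomas 6 and 9. It was also 0 with the first letter of the identifier as a block or within the m tumours alone. Over all genes the count called higher moved too, from 29 to between 2 and 47 with a tumour left out. Its range over all 20 alternatives was 0 to 47. The Atp6v0d2 slope itself was 0.91 with the letter as a block, 0.89 within the 6 m tumours, and 0.77 without the 2 tumours farthest from the median marker level. With a single marker in place of the 6 it was 1.77 on Acp5 and 2.30 on Ctsk, per log2 unit of that marker, and was not called. Without osteosarcomas 6 and 9 the 8 slopes were 1.10 (Atp6v0d2), 0.80 (Atp6v1b2), 0.91 (Atp6v1d), 0.75 (Atp6v1a), 0.81 (Atp6v1e1), 1.46 (Car2), 0.91 (Snx10) and 0.66 (Hexa), with adjusted p between 0.052 and 0.101. With both marker levels in the fit, the slopes of the 5 genes without these 2 tumours were 1.19 (Atp6v0d2), 1.04 (Atp6v1d), 0.84 (Atp6v1a), 0.86 (Atp6v1b2) and 0.76 (Hexa), with adjusted p between 0.0976 and 0.113. The c and o letters hold 4 and 2 tumours, too few for values of their own, and the labels do not say what the letters stand for. Of the 33 genes, 26 had a positive slope in the fit of all 12 osteosarcomas, as did 5464 of 11800 genes. These 26 stayed positive in every fit that left out a single tumour, and 24 did under all alternatives. Such fits share most of their tumours and are not independent.

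Genes of the same pathway outside the list were counted too. Of 6 further pump isoforms, 5 had a named probe set and 1 of these passed the filter on low signal. That gene, Atp6v1g2, had a difference of 0.96 between the osteosarcomas and mc3T3 and was not called. Of 31 further lysosome genes 25 were measured. In the osteosarcomas 5 were higher and 1 was lower than in mc3T3 (8.59% and 4.58% of all genes), and the median difference of the 25 was 0.70. Cln3, a lysosomal membrane protein lost in juvenile Batten disease, had 183 to 534 units in the osteosarcomas, against 5.9 in mc3T3, a difference of 3.35 ± 0.40 (adjusted p = 7.15e-05) whose size again depends on the pseudocount. Laptm4b had a difference of 3.27 ± 0.59 (0.00174), Mitf, the E-box factor of osteoclasts and melanocytes, 1.79 ± 0.48 (0.0229), and Grn, the progranulin gene, 1.65 ± 0.33 (0.004). Gaa, the lysosomal alpha-glucosidase, had 2206 to 3631 units in the osteosarcomas, against 5524 in mc3T3, a difference of -1.03 ± 0.30 (0.035). In the tumour labelled rhabdomyosarcoma, Scarb2, the receptor that brings glucocerebrosidase to lysosomes, had 4683 units, against 1538 to 2245 in the osteosarcomas, a difference of 1.25 ± 0.27 (0.0214). It was the only one of the 25 called higher in that tumour (1.19% of all genes), and 0 were called lower (1.76%). On osteoclast markers, the beta-galactosidase gene Glb1 had a slope of 1.02 ± 0.15 (0.012) and the sulfatase gene Arsb 1.15 ± 0.21 (0.0367). Of the 25 genes, 2 were called higher on osteoclast markers (0.246% of all genes) and 0 lower (0.0508%), and 0 were called on macrophage markers. Whether the calls of these further genes hold without osteosarcomas 6 and 9 was not tested.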

How the data were processed

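Total RNA of 13 tumours and 1 cell culture was hybridised to Affymetrix arrays, extracted with a silica column kit and biotin-labelled, per the labels' protocols. The authors deposited 1 linear signal (intensity) per probe set and array, for 45101 probe sets. GCOS is the software in the submitters' processing notes, with no version given in the sources used here. With 2% trimmed from each end, the mean was 500.0 on every array, so scaling had been done before deposit. Without detection calls, low signal and background cannot be separated. Precision is limited by the number of arrays.

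Groups follow the sample titles, since mc3T3 appears in every description. Tumour numbers follow accession order and are names only. P-values measure the spread between these samples, since the labels do not say whether tumours came from separate animals. No 2 columns were identical (highest correlation 0.974).

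The filter kept the 22479 probe sets that reached a signal of 200 on 1 array or more, and log2(signal + 30) was analysed, a scale that understates the change of low genes. Symbols came from the platform annotation: 34945 probe sets had 1 symbol, 932 several and 9160 were unnamed here. Differences and slopes were fitted by limma 3.58.1 in R 4.3.3 (lmFit, then eBayes; two-sided p-values adjusted over all genes by Benjamini-Hochberg), with 3 groups in a model whose residual spread is that of the 12 osteosarcomas (11 degrees of freedom); a lone array is assumed to vary like them. The script was tested on simulated data. The 15 marker genes of the indices are left out of the counts over all genes for the slopes. The alternatives were another normalization, pseudocount and filter, the mean of probe sets, subsets of tumours and each tumour left out.

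The members, role lists and marker lists were chosen with earlier results of these data known. The rule for named genes takes every listed gene by role, those called in a comparison and the osteoclast-type subunits with full values and the others by ranges and counts, and up to 4 called genes per direction of the other pathway lists.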

Additional observations from a re-analysis of the deposited data

How the results depend on the processing

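The count of genes higher in the osteosarcomas than in mc3T3 was 10 to 14 over 20 alternatives and 11 to 13 with a tumour left out. The count lower in the tumour labelled rhabdomyosarcoma was 1 in all but 1 of 20 alternatives, and 4 with only the m tumours. The count of osteoclast slopes called (8) was 0 without osteosarcomas 6 and 9, 0 with the letter block, 0 with m tumours only, 0 without the 2 tumours farthest from the median, 0 with Acp5 alone and 0 with Ctsk alone, and 0 to 9 with a tumour left out. With macrophage markers beside (5) it was 0 without osteosarcomas 6 and 9, 2 with quantile normalization, 0 with the letter block, 0 with m tumours only, 0 without the 2 farthest tumours, and 0 to 2 with a tumour left out. Why the calls were lost was not tested for any of these settings. On macrophage markers the count for the listed genes was 0 in all 18. Over all genes, osteoclast slopes called higher numbered 29, and 2 to 47 with a tumour left out. With macrophage markers beside they numbered 23, and 0 to 6 with a tumour left out. Neu1 was called against mc3T3 without osteosarcoma 7 or 12. No called difference or slope changed sign. Leaving out osteosarcomas 6 and 9 was chosen after seeing the data. No paired analysis was possible because the labels give no replicate numbers shared between the groups. Signal near background limits Atp6v0d2, Car2, Atp6v0e2 and Cln3 in mc3T3. It also limits Atp6v0d2 in the tumour labelled rhabdomyosarcoma, and Atp6v0e2 and Atp6v0a1 in some osteosarcomas. Having 1 array each limits both lone groups.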

Other observations

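Over the 12 osteosarcomas, 3 of the genes outside the list with a called slope on osteoclast markers are given here with their values. Gpr137b, a lysosomal membrane protein, had a slope of 1.15 ± 0.11 (limma, adjusted p = 0.000572), the smallest adjusted p of the table. Gnptab, a subunit of the enzyme that tags hydrolases for the lysosome with mannose 6-phosphate, had 0.80 ± 0.13 (adjusted p = 0.0231), and Slc9b2, a sodium-proton exchanger known from osteoclasts, had 0.91 ± 0.13 (adjusted p = 0.0114). These genes were picked from the called ones after their values were seen.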
